A study of Dirofilaria immitis with 5 samples.

Results

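The small RNAs described here were those of the culture medium of microfilariae of Dirofilaria immitis, the heartworm of dogs, set against 4 other libraries of the same worm. A row of the deposited table is 1 distinct sequence of 18 to 25 nt, and the rows described were those with 10 or more reads in the microfilariae library. They were 144 of the 1228 rows in the table, 65 of them among the 173 rows named after known miRNAs and 79 among the 1055 predicted candidates, whose names start with PC. The other 1084 rows held 0.144% of the microfilariae reads.

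The series asked which miRNAs live worms release at different stages. Whole worms were kept in culture, and small RNA libraries were sequenced from the concentrated medium. The libraries were microfilariae (the larvae that circulate in the blood of the host), third-stage larvae (L3, which mosquitoes pass on), fourth-stage larvae (L4, which grow in the dog), and the adults, females and males apart. Each was 1 library with no replicate, so no test across samples was possible and every comparison below is between libraries. The sources used here do not state the number, strain or age of the worms, the hours of culture, or whether the female medium was free of microfilariae. Each library came from the medium of whole worms, so more releasing cells and more RNA released per cell cannot be told apart.

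A miRNA is cut from the stem of a hairpin RNA, and either side of the stem, called the 5p and the 3p arm, can become the mature strand, with one arm usually far more abundant than the other. The bases near the 5′ end of the mature strand, called the seed, pair with target messenger RNAs, so that miRNAs with the same seed form a family. The 3′ end is less fixed, and the same miRNA is often found in several length forms. Many animals release miRNAs in vesicles or bound to protein, and filarial miRNAs have been found in the blood of infected hosts.

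The table held 727018 reads of microfilariae, 34448 of L3, 326187 of L4, 376070 of females and 32983 of males. These were 20.2% of the mappable reads of microfilariae, 0.870% of those of L3, 5.08% of those of L4, 12.2% of those of females and 1.0% of those of males. A count of 0 reads allows a share of up to 0.000413% in microfilariae, 0.00871% in L3, 0.000920% in L4, 0.000798% in females and 0.00910% in males, each taken at 3 counts. Rows scarce in microfilariae could therefore not be compared with L3 or males. Below, shares are percentages of the table reads of 1 library, and folds are the share in microfilariae over that in another library. Parentheses after a value hold exact 95% intervals, Clopper-Pearson for shares and conditional binomial for folds. They cover counting error only, since reads copied by PCR are not independent molecules.

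The sequences that carry the make-up of the library are printed here from the deposited table, in DNA letters from 5′ to 3′, with the seed (bases 2 to 8) in capitals. The first set shows the most abundant seed, shared by the 4 main miR-100 rows and a candidate that differs from 1 of them in its last base:

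bma-miR-100d_R+1: tACCCGTAgctccgaatatgtgt

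bma-miR-100a_R+1: aACCCGTAgtttcgaacatgtgt

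bma-miR-100b_R+1: aACCCGTAgatccgaacttgtgt

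bma-miR-100c_R+1_1ss12CT: aACCCGTAgaattgaaatcgtgt

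PC-5p-700_1781: aACCCGTAgaattgaaatcgtgg

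The second set shows rows whose share was at least 2-fold above all 4 other libraries, with the length forms of miR-71 and miR-34 beneath the main form of each:

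asu-miR-71-5p_R-2: tGAAAGACatgggtagtgaga

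cel-miR-71-5p_R+1: tGAAAGACatgggtagtgagacga

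hco-miR-71_R+3: tGAAAGACatgggtagtgagacgca

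cel-miR-34-5p_R+1_1ss1AT: tGGCAGTGtggttagctggttgt

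prd-miR-34-5p_R+3: tGGCAGTGtggttagctggttgttt

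bma-miR-57: tACCCTGTggtaccgagctgtgtct

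bma-miR-50: tGATATGTctgatattcttgggtt

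hco-miR-307_R-3_1ss21TC: tCACAACCtccttgagtaagc

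hco-miR-993_R-1_2ss11GT22AG: tAAGCTCGtctctacaggcagg

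PC-3p-408_2810: gAATTCCTctgcggtagttactgga

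The third set shows rows that were below all 4 other libraries:

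bma-lin-4: tCCCTGAGacctctgctgcga

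PC-3p-4596_246: aTAAAGCTagacgaccggag

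bma-miR-92_R+2: tATTGCACtcgtcccggcctga

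The microfilariae library was a mixture led by 1 family. Rows with 10000 or more reads were 11 in number and held 89.3% of the reads, and the 72 rows with 10 to 50 reads held 0.216%. It took 12 rows to reach 90% of the reads of microfilariae, against 5 in L3, 2 in L4, 17 in females and 15 in males. By this count the library was less concentrated than both larval libraries and more so than both adult ones. Named rows among the 144 held 92.2% of the reads and candidates 7.63%. Of the 144 rows, 121 with 94.5% of the reads are listed with no match in the dog genome, 13 with 4.10% are listed with inexact matches and 10 with 1.23% with exact ones.

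**Figure D1:**
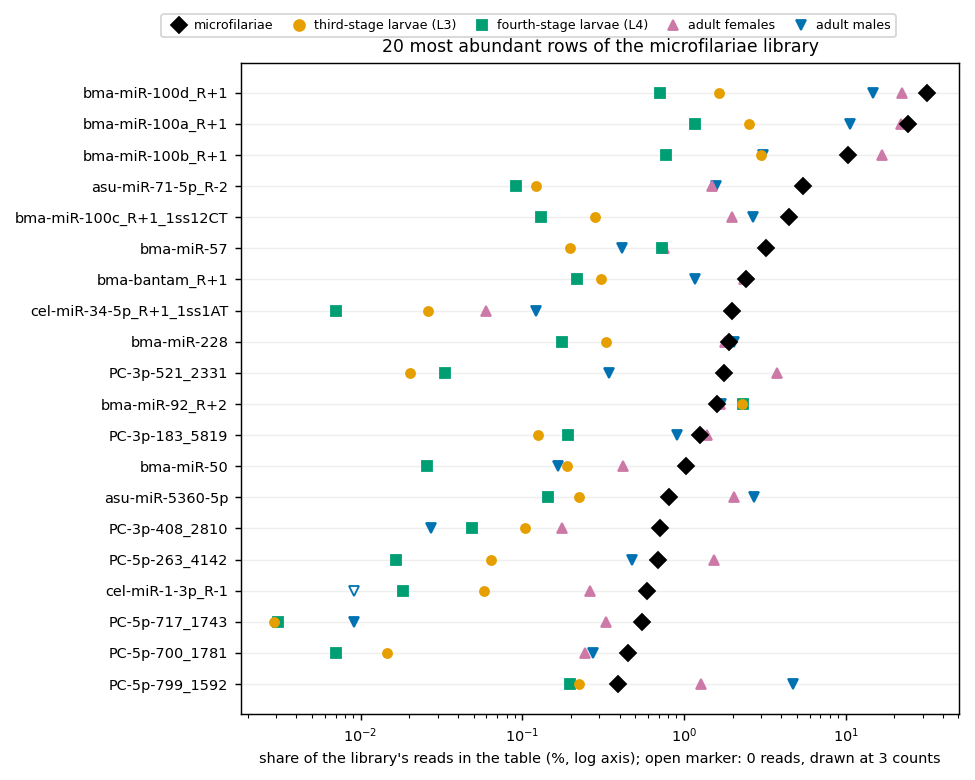
Share of each library's reads in the table (percent, log axis) for the 20 most abundant rows of microfilariae, with 1 marker per library. The black diamonds of microfilariae lie furthest right for miR-100d, miR-71, miR-57 and miR-34, among others, while the females (pink triangles) lie to the right of them for miR-100b and PC-3p-521_2331.

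The plot of the 20 most abundant rows shows how these shares stood in all 5 libraries. The miR-100 family, whose relatives in Caenorhabditis elegans (the miR-51 family) are needed in embryonic development, filled the first 3 places. bma-miR-100d_R+1 held 31.8% (31.7 to 31.9) of the microfilariae reads, against 1.64% in L3, 0.711% in L4, 22.4% in females and 14.9% in males. bma-miR-100a_R+1 held 24.3% in microfilariae, against 2.54% in L3, 1.16% in L4, 21.9% in females and 10.7% in males. The third row, bma-miR-100b_R+1, held 10.3% in microfilariae and was the exception, with 16.9% in females (3.46-fold the L3 and 13.3-fold the L4 share, 3.33-fold that of males, and 1.63-fold below that of females). bma-miR-100c_R+1_1ss12CT held 4.46% in microfilariae, 0.282% in L3, 0.130% in L4, 1.97% in females and 2.68% in males. Thus 3 of the 4 main rows had their highest share in microfilariae, while miR-100b did not, and for miR-100a another library was higher when the authors' library size parameter was used to scale the libraries.

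The make-up within the family depends on no scaling. Of the reads of these 4 rows, miR-100d made up 44.9% (44.7 to 45.0) in microfilariae, 22.1% (20.5 to 23.7) in L3, 25.6% (24.7 to 26.5) in L4, 35.5% (35.3 to 35.7) in females and 47.4% (46.4 to 48.4) in males. miR-100b made up 14.6% (14.5 to 14.7) in microfilariae, 40.1% (38.2 to 42.0) in L3, 28.0% in L4, 26.7% (26.5 to 26.9) in females and 9.89% (9.32 to 10.5) in males. miR-100a was more even, at 34.3% in microfilariae, 34.1% in L3, 41.8% in L4, 34.7% in females and 34.1% in males. On this measure the microfilariae lay nearest to the males, although the share of the whole family, 70.9% in microfilariae, was nearer to the 63.2% of females than to the 31.3% of males. miR-100c made up 6.30% in microfilariae and 8.56% in males, against 3.78% in L3, 4.67% in L4 and 3.13% in females.

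The candidate PC-5p-700_1781 carries the substitution T23G relative to bma-miR-100c_R+1_1ss12CT, with positions counted from 1 at the 5′ end. It made up 9.15% (8.86 to 9.46) of the reads of the 2 rows in microfilariae, 4.90% (1.61 to 11.1) in L3, 5.15% (3.29 to 7.62) in L4, 11% (10.3 to 11.7) in females and 9.23% (7.49 to 11.2) in males. The intervals of microfilariae and females did not overlap. In 3 other pairs that differ in 1 base, the scarcer row made up 4.33% (T22C, miR-81b), 4.83% (A9C, the 24-nt form of miR-71) and 5.38% (T22G, miR-83) of the reads of its pair in microfilariae.

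Of the 144 rows, 61 had a higher share in microfilariae than in each of the other 4 libraries, 6 had a lower share than in each, and 77 lay between. The 61 are 32.1% of the 190 rows with 10 or more reads in any library. The same count in the other libraries was 11 of the 37 rows with 10 or more reads in L3, 5 of 63 in L4, 68 of 135 in females and 22 of 53 in males, so the share of 42.4% in microfilariae lay between those of males (41.5%) and females (50.4%) and does not set the library apart. The 61 rows held 78.8% of the microfilariae reads and were 32 named rows and 29 candidates. For 39 of them the count in L3 or in males was 0. Intervals above equal shares against all 4 libraries were found for 23 of the 61, and for none of the 30 with fewer than 50 reads.

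These classes rest on the share of table reads. Of the 61 rows above, 39 were also above when reads were taken per mappable read, per the authors' library size parameter, per TMM factors (trimmed mean of M-values) and per median-of-ratios factors. Of the 23 with intervals above equal shares, 16 were.

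A share at least 2-fold above all 4 libraries was reached by 12 rows, which is 6.32% of the 190, and for 10 of them the nearest library was the females. The same count was 10 of 37 rows in L3, 0 of 63 in L4, 29 of 135 in females and 17 of 53 in males. The 12 of 144 (8.33%) in microfilariae was a smaller share than in any of the others except L4. This order also depends on depth. A row with 0 reads in L3 or males had to stand 2-fold above a limit of 0.00871% or 0.00910%. The limit for 0 reads in microfilariae was 0.000413%. The 12 rows, of which 8 were above under all 5 scalings, are taken here by miRNA.

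miR-34, a family linked to DNA damage and stress responses in animals, stood furthest from the others. cel-miR-34-5p_R+1_1ss1AT had 14489 reads (1.99%) in microfilariae, 9 (0.0261%) in L3, 23 (0.00705%) in L4, 226 (0.0601%) in females and 40 (0.121%) in males. Its share was highest in microfilariae and second in males. The fold was 76.3 (40.2 to 167) over L3, 283 (188 to 446) over L4, 33.2 (29.1 to 38.0) over females and 16.4 (12.1 to 23) over males. This was the only row of the 12 more than 10-fold above all 4 libraries, and it was above in all 5 scalings. Its other arm, asu-miR-34-3p_2ss11AG12CT, had 64 reads in microfilariae, 6 in females and 0 in the other 3, a fold of 5.52 (2.40 to 15.6) over females. The 25-nt form prd-miR-34-5p_R+3 had 88 reads in microfilariae and 0 in all 4 others, which is at least 13.2-fold higher than in L4 and at least 15.2-fold higher than in females at 3 counts.

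miR-71, which acts in lifespan and stress resistance in C. elegans, gave 2 of the 12. asu-miR-71-5p_R-2, the fourth most abundant row, had 39766 reads (5.47%) in microfilariae, 42 (0.122%) in L3, 298 (0.0914%) in L4, 5586 (1.49%) in females and 518 (1.57%) in males. Females and males were level, and microfilariae stood 3.68-fold (3.58 to 3.79) above females and 3.48-fold (3.19 to 3.81) above males. Against the larvae the fold was 44.9 (33.2 to 62.3) for L3 and 59.9 (53.4 to 67.3) for L4. Its 24-nt form cel-miR-71-5p_R+1 had 572 reads in microfilariae, 0 in L3, 6 in L4, 137 in females and 6 in males, and stood 2.16-fold (1.79 to 2.62) above females. Both rows were above in all 5 scalings.

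miR-57, which helps to pattern the tail in C. elegans, and miR-50 were above by share but not in every scaling. bma-miR-57 had 23516 reads (3.23%) in microfilariae, 68 (0.197%) in L3, 2403 (0.737%) in L4, 2821 (0.75%) in females and 137 (0.415%) in males, so that L4 and females were level. The fold was 4.39 (4.21 to 4.58) over L4 and 4.31 (4.15 to 4.49) over females, but with the authors' parameter or median-of-ratios factors another library was higher. bma-miR-50 held 1.02% in microfilariae, 0.189% in L3, 0.0258% in L4, 0.421% in females and 0.167% in males, 2.43-fold (2.30 to 2.57) above females, and with the authors' parameter another library was higher.

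The muscle miRNA miR-1 had no read in males in its main form. cel-miR-1-3p_R-1, which has exact dog matches in the table, had 4330 reads in microfilariae, 20 in L3, 60 in L4, 989 in females and 0 in males. Its share of 0.596% in microfilariae was 2.26-fold (2.11 to 2.43) that of females and at least 65.5-fold higher than in males at 3 counts. The 23-nt form cbr-miR-1_R+2, listed with no match, had 61 reads in microfilariae, 1 in L3, 2 in L4, 17 in females and 11 in males, so males had the longer form alone. The main form was highest in microfilariae in all 5 scalings.

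The remaining rows of the 12 were less abundant. hco-miR-993_R-1_2ss11GT22AG had 1540 reads in microfilariae, 3 in L3, 6 in L4, 207 in females and 3 in males, and was 3.85-fold (3.33 to 4.47) above females. hco-miR-307_R-3_1ss21TC had 368 reads in microfilariae, 47 in females and 1 in each of the others, and was 4.05-fold (2.98 to 5.61) above females and 16.7-fold (2.98 to 661) above males. asu-miR-86-5p had 2326 reads in microfilariae, 10 in L3, 53 in L4, 589 in females and 12 in males. The candidate PC-3p-408_2810 had 5206 reads in microfilariae, 36 in L3, 159 in L4, 666 in females and 9 in males, and was 4.04-fold (3.73 to 4.39) above females. These 4 rows were above in all 5 scalings. cel-miR-46-3p_2ss12CT21CT had 102 reads in microfilariae, 17 in females, 0 in L4 and 1 in each of the others. The intervals of its log2 ratio, -0.24 to 7.59 against L3 and -0.30 to 7.53 against males, included equal shares. With the authors' parameter another library was higher for this row. The candidate PC-5p-8534_111, with 355 reads in microfilariae and 84 in females, was 2.19-fold (1.72 to 2.81) above females, and another library was higher with that parameter or with median-of-ratios factors.

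**Figure D2:**
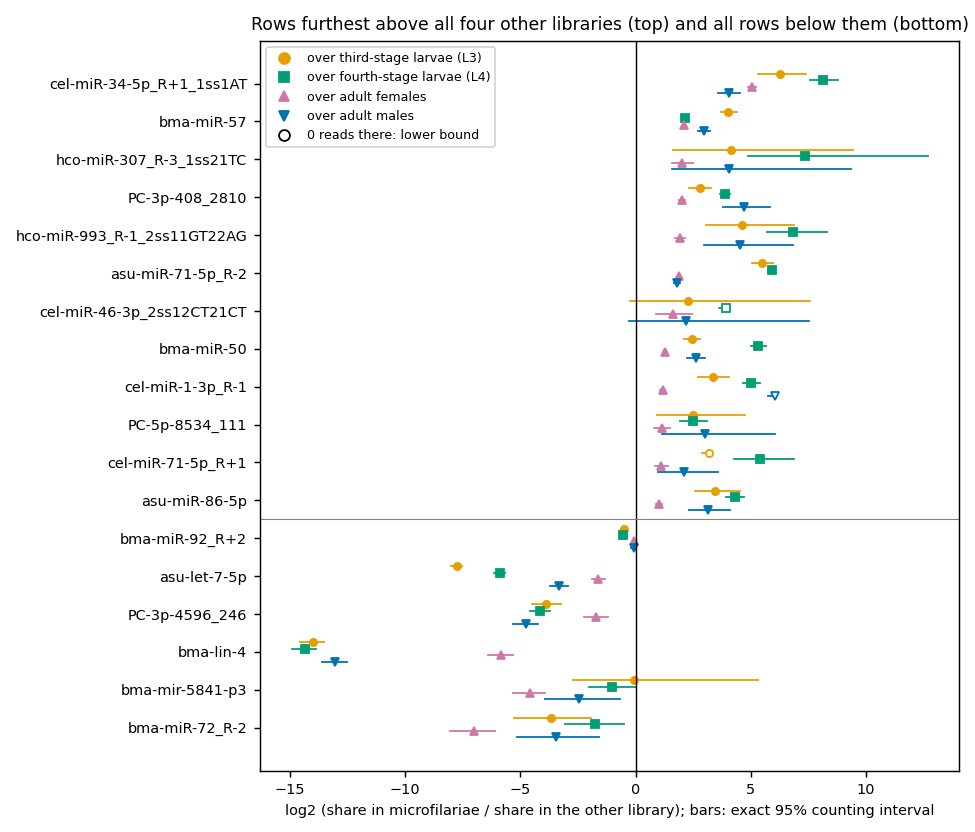
Log2 of the share in microfilariae over the share in each other library, with exact 95% counting intervals, for the 12 rows at least 2-fold above all 4 libraries (upper block) and the 6 rows below all 4 (lower block); open markers are lower bounds at 3 counts. miR-34 lies right of 4 in all comparisons, and bma-lin-4 left of -13 against L3, L4 and males.

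The plot of ratios for these rows also shows the 6 rows below all 4 libraries. Among the 190 rows with 10 or more reads in any library, 14 (7.37%) lay below all 4, and the 144 rows held 6 of them (4.17%). A share at least 2-fold below all 4 was found for 4 of the 144 (2.78%), against 3.68% of the 190. bma-lin-4, the timer of early larval development in C. elegans, had 31 reads (0.00426%) in microfilariae, 24320 (70.6%) in L3, 292336 (89.6%) in L4, 922 (0.245%) in females and 11792 (35.8%) in males. It was 57.5-fold (40.2 to 85.1) lower than in females, the nearest library, and was the only 1 of the 6 that stayed below in all 5 scalings.

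asu-let-7-5p, whose C. elegans form controls the passage to the adult and which has exact dog matches in the table, had 175 reads (0.0241%) in microfilariae, 1795 (5.21%) in L3, 4684 (1.44%) in L4, 278 (0.0739%) in females and 80 (0.243%) in males. It was 3.07-fold (2.53 to 3.73) lower than in females and 216-fold (185 to 254) lower than in L3, though per mappable read it was not below all 4. The candidate PC-3p-4596_246 had 52 reads in microfilariae, 36 in L3, 411 in L4, 88 in females and 64 in males, which was 3.27-fold (2.30 to 4.70) lower than in females and 27.1-fold (18.5 to 39.9) lower than in males, with the same exception. It shares the seed TAAAGCT with bma-miR-9-3p, which had 70 reads in microfilariae, 5 in L4, 103 in females and 0 in L3 and males.

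bma-miR-92_R+2, whose relative in C. elegans is miR-235, was almost level across the libraries. It held 1.60% (1.57 to 1.63) in microfilariae, 2.29% in L3, 2.32% in L4, 1.67% in females and 1.70% in males. The share was 1.04-fold (1.01 to 1.08) lower than in females, and it lay below all 4 by share and with the authors' parameter, above all 4 per mappable read and between with TMM or median-of-ratios factors. bma-mir-5841-p3 had 20 reads in microfilariae, 1 in L3, 18 in L4, 250 in females and 5 in males. It was 24.2-fold (15.3 to 40.2) lower than in females, the furthest library. Against L3, the nearest, it was 1.06-fold (0.0255 to 6.60) lower, so these 2 shares could not be told apart. bma-miR-72_R-2 had 10 reads in microfilariae, 6 in L3, 15 in L4, 657 in females and 5 in males. It was 127-fold (68.6 to 266) lower than in females, the furthest library. The nearest was L4, at a log2 ratio of -1.74 (-3.06 to -0.49). Per mappable read neither bma-mir-5841-p3 nor bma-miR-72_R-2 was below all 4. Intervals below equal shares against all 4 libraries were found for 4 of the 6 rows. The exceptions were bma-mir-5841-p3 against L3 and bma-miR-92_R+2 against males.

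Of the 77 rows between, 26 were higher in females alone, 24 in females and males, 16 in males alone, 4 in L3 alone and 4 in females and L3. Over all 144 rows, females had the higher share for 61, males for 49, L3 for 16 and L4 for 7. The adult libraries thus accounted for most rows that were not highest in microfilariae by share. Intervals below equal shares were found for 49 of the 61 rows against females and 26 of the 49 against males. They were found for 10 of the 16 against L3 and for all 7 against L4. Some rows higher in males rest on few reads, such as bma-miR-283_R-2, with 11 in microfilariae and 1 in males. PC-3p-521_2331, the tenth row, is an example of those higher in females alone, with 1.77% in microfilariae, 0.0203% in L3, 0.0331% in L4, 3.76% in females and 0.343% in males. asu-miR-5360-5p is an example of those higher in both adults, with 0.811% in microfilariae, 0.224% in L3, 0.144% in L4, 2.04% in females and 2.70% in males. bma-miR-228, whose gene is active in glia of C. elegans, was close to level with both adult libraries, at 1.89% (1.86 to 1.93) in microfilariae, 0.328% in L3, 0.177% in L4, 1.8% in females and 2.05% in males. bma-bantam_R+1, of a family that promotes growth in Drosophila, counted among the 61 rows above by share but not in all 5 scalings. It held 2.41% in microfilariae and 2.36% in females, a fold of 1.02 (0.994 to 1.05), so the 2 shares could not be told apart by counting error, and the row is listed with inexact matches in the dog genome.

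Each library was then taken on its own. Against L3, 48 of the 144 rows were at least 2-fold higher in microfilariae (31.8% of the 151 rows with 10 or more reads in either library) and 10 were at least 2-fold lower (11.3% of the 151 were lower). The 48 rows held 97.0% of the microfilariae reads. For 75 rows the L3 count was 0, and 83 intervals included equal shares. The median log2 ratio was -0.37 over the 144 rows and -0.53 over the 151, with rows at 0 reads taken at 3 counts. By share alone, 128 of the 144 rows were higher in microfilariae than in L3 and 16 lower. The negative sign of the median over the 144 rows thus comes from that limit. The balance depended on the scaling, with 139 rows higher and 2 lower per mappable read, 16 higher and 31 lower with the authors' parameter, and 24 higher and 27 lower with median-of-ratios factors. By share, the highest fold was 191 (34.2 to 7527) for the candidate PC-5p-717_1743, which had 4021 reads in microfilariae and 1 in L3. This candidate, also far higher in microfilariae than in L4 and males, is listed with inexact matches in the dog genome. Next were 91.0 (16.3 to 3595) for crm-mir-239b-p5_1ss6AC, which had 1920 and 1, and 87.2 (42.3 to 217) for PC-3p-521_2331, ahead of miR-34. Lower rows beside let-7 and lin-4 included 3 known from nervous tissue, while miR-87b, also on the neuronal list below, went the other way, with asu-miR-87b-3p at 30.9-fold (10.6 to 149.9) higher in microfilariae. bma-miR-124_R-2 had 192 reads (0.0264%) in microfilariae and 83 (0.241%) in L3, 9.12-fold (6.97 to 11.9) lower. hco-miR-9 was 8.94-fold (7.07 to 11.2) lower and bma-miR-7_R+1 7.06-fold (5.47 to 9.04) lower. All 3 are listed with exact or inexact matches in the dog genome.

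Against L4, 120 rows were at least 2-fold higher in microfilariae (76.4% of 157 rows) and 5 were lower (11.5% of the 157 were lower), with a median log2 ratio of 2.43 over the 144 rows and 2.26 over the 157. Most of these 157 rows were thus higher in microfilariae, in a comparison where a single row, bma-lin-4, held 89.6% of the L4 reads. With the authors' library size parameter 22 rows were higher and 34 lower. The highest folds were 439 (121 to 3626) for asu-miR-87b-3p, which had 1956 reads in microfilariae and 2 in L4, 283 for miR-34, 213 (38.1 to 8435) for PC-5p-6667_154 with 475 reads in microfilariae and 1 in L4, and 180 (98.0 to 377) for PC-5p-717_1743. Beside bma-lin-4, the lower rows past 2-fold were let-7 (59.7-fold lower, 51.3 to 69.8), PC-3p-4596_246 (17.6-fold lower, 13.2 to 24.0), bma-miR-72_R-2 (3.34-fold lower) and bma-mir-5841-p3 (2.01-fold lower). PC-3p-1789_713, at 0.0904% in microfilariae and 0.145% in L4, was 1.61-fold (1.43 to 1.81) lower.

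Against females, 49 rows were at least 2-fold higher in microfilariae (28.2% of 174 rows) and 44 lower (42.5% of the 174 were lower), with a median log2 ratio of 0.46 over the 144 rows and -0.10 over the 174. The 49 rows held 19.2% of the microfilariae reads and the 44 rows 4.97%, so most reads of microfilariae lay in rows within 2-fold of females. This was the only library in which few of the 144 rows had no read, at 5 rows. With TMM factors 74 rows were higher and 30 lower. Among rows with 50 or more reads in microfilariae, the lowest against females was bma-miR-5866, with 62 reads (0.00853%) in microfilariae and 1156 (0.307%) in females, 36.0-fold (27.9 to 47.3) lower. PC-3p-903_1424 was next among these, at 0.118% in microfilariae and 2.13% in females, 18-fold (16.8 to 19.4) lower, and is listed with inexact dog matches. asu-miR-279a-3p_1ss9TA held 0.257% in microfilariae and 2.10% in females, 8.18-fold (7.78 to 8.61) lower. PC-5p-6667_154 was 6.91-fold (6.24 to 7.67) lower and crm-mir-239b-p5_1ss6AC 5.12-fold (4.86 to 5.40) lower.

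Against males, 26 rows were at least 2-fold higher in microfilariae (17.2% of 151 rows) and 35 lower (27.8% of the 151 were lower), and 52 rows had 0 reads in males. The 26 rows held 85.6% of the microfilariae reads. The median log2 ratio was -0.95 over the 144 rows and -1.05 over the 151. Rows at 0 reads were again taken at the limit for a count of 0. By share alone, 95 of the 144 rows were higher in microfilariae than in males and 49 lower. The negative sign of the median over the 144 rows thus comes from that limit. Beside miR-1, PC-5p-717_1743 was 60.8-fold (20.8 to 295) higher in microfilariae, PC-3p-408_2810 26.2-fold (13.8 to 57.4) higher and miR-993 23.3-fold (7.95 to 113) higher. The row furthest lower apart from lin-4 was cel-mir-5592-1-p3_1ss8TC, with 83 reads (0.0114%) in microfilariae and 513 (1.56%) in males, 136-fold (108 to 174) lower, which is listed with inexact dog matches. asu-miR-279a-3p_1ss9TA held 0.257% in microfilariae and 6.22% in males, 24.2-fold (22.7 to 25.8) lower. PC-5p-799_1592, with exact dog matches, held 0.391% in microfilariae and 4.70% in males, 12-fold (11.3 to 12.8) lower. PC-3p-5721_189 was 12.4-fold (9.84 to 15.6) lower, with 211 reads in microfilariae and 119 in males. Per mappable read, 134 rows were higher in microfilariae and 2 lower, and with TMM factors 64 were higher and 16 lower.

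**Figure D3:**
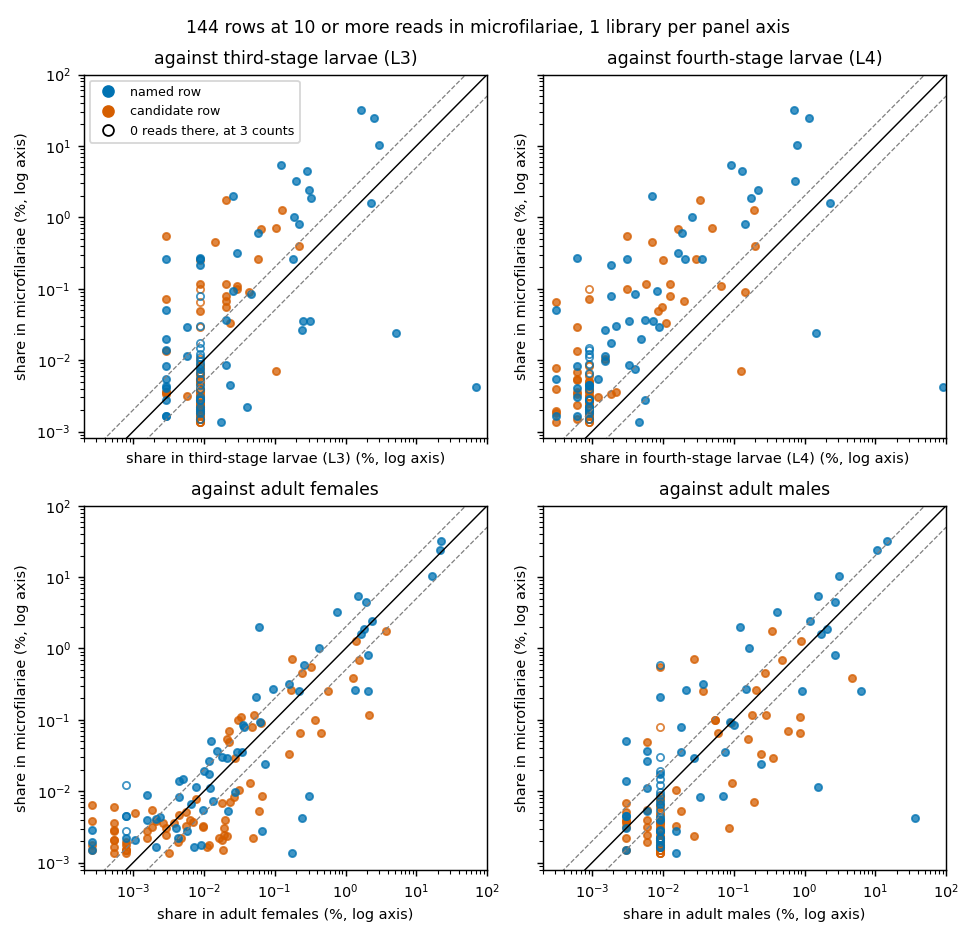
Share in microfilariae (vertical, percent, log axis) against the share in each other library (horizontal, percent, log axis), 1 panel per library; the solid line marks equal shares and the dashed lines 2-fold differences, and open circles stand at 3 counts where the other library had 0 reads. Rows crowd along the line in the panel of females, lie above it in the panel of L4, and pile up at the limit of 3 counts in the panels of L3 and males.

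The plot of the 4 comparisons shows the spread behind these counts, and its open circles mark the rows for which the other library had no read.

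By name, 40 of the 144 rows with 90.3% of the microfilariae reads belonged to 13 of 14 lists of families and tissue miRNAs. The counts below are by share, and over all 144 rows 61 (42.4%) were above by that measure. The miR-100/miR-51 list had 7 members, 3 above all 4 libraries, of which miR-100a was not above with the authors' parameter, and 4 between. The miR-71 list had 5 members, 4 above and 1 between, and held 5.56% (5.51 to 5.61) in microfilariae, 0.122% in L3, 0.0932% in L4, 1.52% in females and 1.60% in males. The miR-34 list had 3 members, all above, and held 2.01% in microfilariae, 0.0261% in L3, 0.00705% in L4, 0.0617% in females and 0.121% in males. Among the lists, miR-34 was the one whose 3 members were all above all 4 libraries by share. They are length forms and the other arm of a single miRNA, and 1 of the 3 was at least 2-fold above all 4. The 3p arm had 0 reads in L3 and males. Its fold intervals started at 0.80 against L3 and 0.76 against males, so they included equal shares.

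The list of intestinal or epidermal miRNAs (miR-86, miR-57, miR-50, miR-228 and miR-60) had 6 members, 4 above and 2 between, though of the 4 bma-miR-57 and bma-miR-50 were not above with the authors' parameter. The list held 6.48% in microfilariae, 0.749% in L3, 0.956% in L4, 3.14% in females and 2.78% in males. The muscle list had 2 members, 1 above and 1 between, and held 0.606% in microfilariae, 0.102% in L3, 0.0374% in L4, 0.268% in females and 0.0334% in males. The miR-80/bantam list had 3 members, 1 above (bantam, not so with the authors' parameter) and 2 between, at 2.5% in microfilariae, 0.357% in L3, 0.222% in L4, 2.41% in females and 1.28% in males. The muscle list was lowest in males, and the other 2 lists were lowest in L3 or L4.

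The neuronal list (miR-124, miR-7, miR-87 and miR-137) had 5 members, 3 above and 2 between, at 0.352% in microfilariae, 0.511% in L3, 0.0113% in L4, 0.146% in females and 0.194% in males. Its members went apart, since the 3 above were rows of miR-87b, of which the 5p row was not above in 3 of the other scalings, and the rows of miR-124 and miR-7 were highest in L3. asu-miR-87b-3p held 0.269% in microfilariae, 0.00871% in L3, 0.000613% in L4, 0.0955% in females and 0.152% in males, 1.77-fold (1.34 to 2.40) above males. The miR-9/miR-79 list had 3 members, all between, at 0.0470% in microfilariae, 0.354% in L3, 0.00521% in L4, 0.0673% in females and 0.0758% in males. The miR-2/miR-43 list had 2 members, both between, at 0.271% in microfilariae, 0.00871% in L3, 0.0202% in L4, 0.234% in females and 0.931% in males.

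The let-7, lin-4, miR-72/miR-31 and miR-92/miR-25 lists had 1 member each, all below all 4 libraries by share, though of these lin-4 alone was below in all 5 scalings. Their list shares in microfilariae were 0.0265% for let-7, 0.00468% for lin-4, 0.00138% for miR-72/miR-31 and 1.60% for miR-92/miR-25. The miR-35/miR-36 list, whose C. elegans members are needed by embryos, had no member. Its 6 rows in the table summed to 1 read in microfilariae, 9 in L3, 4 in L4, 19383 in females and 185 in males.

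Seeds gave a second grouping that did not use names. The 144 rows had 117 seeds, and 15 seeds were shared by 42 rows that held 88.4% of the reads. Over all rows of the table, the miR-100 seed ACCCGTA held 71.3% in microfilariae, 7.46% in L3, 2.79% in L4, 63.4% in females and 31.6% in males. The seed ACCCTGT joined bma-miR-57 to the candidates PC-5p-799_1592 and PC-3p-2841_427, which were 12-fold and 13.1-fold lower in microfilariae than in males. Summed, this seed held 3.69% in microfilariae, 0.441% in L3, 0.955% in L4, 2.25% in females and 6.09% in males, so by seed the males came first although bma-miR-57 itself was highest in microfilariae. Of the rows with this seed, PC-5p-799_1592 is listed with exact dog matches, and PC-3p-2841_427 is its longer form. Whether these candidates are miRNAs or fragments of other RNAs was not checked. The bantam seed GAGATCA was shared by bantam, miR-81b and 2 candidates and held 2.60% in microfilariae and 2.43% in females.

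Sequence length separated the libraries. Reads of 23 nt made up 76.5% of the microfilariae reads, 8.92% of those of L3, 3.32% of those of L4, 67.8% of those of females and 37.9% of those of males. Reads of 21 nt, the length of bma-lin-4, made up 6.84% in microfilariae, 71.3% in L3, 90.3% in L4, 12.2% in females and 50.9% in males. The miR-100 rows supplied 92.6% of the 23-nt reads of microfilariae. Reads of 25 nt made up 4.11% in microfilariae, 0.328% in L3, 0.801% in L4, 1.11% in females and 0.852% in males, and bma-miR-57 supplied 78.7% of them in microfilariae.

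Without the miR-100/miR-51 rows and bma-lin-4, 29.1% of the microfilariae reads were left. Their lengths were spread, with 23.5% at 21 nt, 17.6% at 22 nt, 19.4% at 23 nt, 16.1% at 24 nt and 14.1% at 25 nt. The 25-nt share of the remainder was 14.1% in microfilariae, 1.5% in L3, 10.6% in L4, 3.02% in females and 2.58% in males. The mean length of the remainder was 22.4 nt in microfilariae, 20.3 nt in L3, 22.0 nt in L4, 21.6 nt in females and 21.6 nt in males. Microfilariae thus had the longest mean both with and without these rows, since over all rows it was 22.8 nt in microfilariae and 22.5 nt in females.

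**Figure D4:**
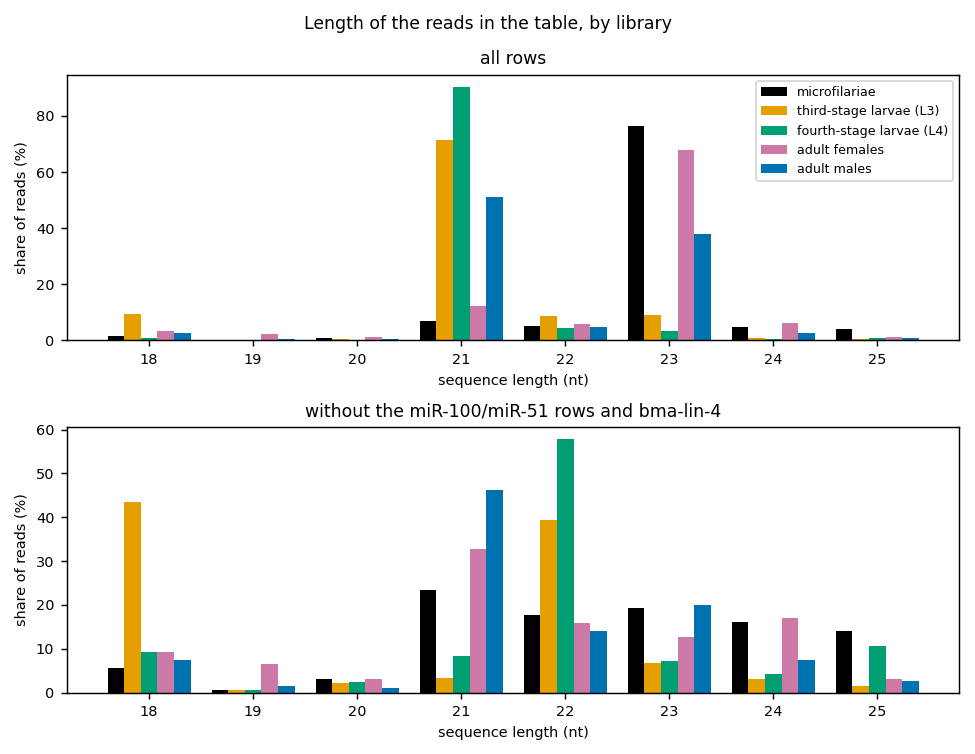
Percentage of each library's reads in the table by sequence length in nt, over all rows (top) and without the miR-100/miR-51 rows and bma-lin-4 (bottom), with 1 bar per library. The tall bar at 23 nt in microfilariae, 76.5%, comes down to 19.4% in the lower panel, where microfilariae have the highest bar at 25 nt.

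The plot of read lengths shows both views. By first base, 51.3% of the microfilariae reads began with T and 43.7% with A, and the miR-100 rows supplied 89.5% of the reads that began with A.

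Length forms were looked for as rows nested in a longer row. There were 13 such pairs among the 144 rows, in which 25 rows held 21.4% of the microfilariae reads, and 11 pairs shared the 5′ end and therefore the seed. The shorter form was the more abundant in 10 pairs and the longer in 3. For miR-71 the 24-nt form made up 1.42% (1.30 to 1.54) of the reads of the pair in microfilariae, 0 of 42 reads in L3, 1.97% (0.728 to 4.25) in L4, 2.39% (2.01 to 2.82) in females and 1.15% (0.421 to 2.48) in males. Its 25-nt form, hco-miR-71_R+3, had 33 reads in microfilariae, 1 in males and 0 in the other 3 libraries. The 24-nt share was thus lower in microfilariae than in females beyond counting error. The 25-nt form made up 0.0829% (0.0571 to 0.116) of its pair in microfilariae. Its 0 reads in females allow up to 0.0660% by the interval, so these shares could not be told apart.

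For miR-34 the 25-nt form made up 0.604% (0.484 to 0.743) of the pair in microfilariae and 0 of 226 reads in females, which allows up to 1.62% by the interval, so a difference was not detectable at this depth. For miR-2c, of a family found in invertebrates, the 23-nt candidate PC-3p-2685_459 made up 21.6% (19.9 to 23.3) in microfilariae, 4.35% (0.906 to 12.2) in L4, 9.35% (7.54 to 11.4) in females and 38.9% (34.6 to 43.3) in males, with 1 of 4 reads in L3. These 4 libraries had intervals that did not overlap, apart from L4 and females. For miR-46-3p the 23-nt candidate PC-3p-19249_37 made up 30.1% (22.8 to 38.3) in microfilariae and 10.5% (1.30 to 33.1) in females, and these intervals overlapped. These 2 longer forms are printed because their shares in microfilariae stood furthest above those in females:

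PC-3p-2685_459: cATCACAGcacgattcggcccgt

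PC-3p-19249_37: tGTCATGGagttgctctctttat

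The candidate PC-3p-408_2810 was the longer and more abundant form of PC-5p-4524_250, which lacks its last base. It made up 90.02% (89.2 to 90.8) of the pair in microfilariae, 83.7% (69.3 to 93.2) in L3, 79.5% (73.2 to 84.9) in L4, 78.7% (75.8 to 81.4) in females and all 9 reads in males. The microfilariae share lay above those of L4 and females beyond counting error. In PC-5p-799_1592 and its 24-nt form PC-3p-2841_427 the longer form made up 14.5% (13.3 to 15.8) in microfilariae, 8.33% (3.42 to 16.4) in L3, 9.13% (7.12 to 11.5) in L4, 15.2% (14.3 to 16.2) in females and 15.6% (14 to 17.4) in males. For hco-miR-9 and bma-miR-9-5p, whose 5′ ends differ by 1 base, the longer made up 94.1% (90.6 to 96.6) in microfilariae and 89.1% (82.9 to 93.6) in females. In the remaining pairs the longer form made up 0.0293% for miR-100b, 0.201% for miR-50, 1.39% for miR-1, 9.55% for miR-46-5p and 98.6% for PC-3p-955_1342 in microfilariae, against 0.0236%, 0.252%, 1.69%, 5.00% and 96.1% in females in the same order. Of these the last, at 98.6% (98.0 to 99.1) against 96.1% (94.4 to 97.5), differed beyond counting error, and the other 4 did not.

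By the names, rows of the 3p arm held 6.06% of the microfilariae reads, those of the 5p arm 11.9%, and rows with no arm in the name 81.9%, among which are the miR-100 rows, miR-57 and bantam. Candidates, whose arm is the one in their predicted name, made up 4.75% of the microfilariae reads within the 3p share and 2.88% within the 5p share. By name, both arms were present for 10 miRNAs, an unlabelled strand being taken as the other arm. Whether the 2 rows of a pair come from the same hairpin was not checked. Their paired bases ranged from 11 for miR-100a and miR-5843 to 18 for miR-9 and miR-153. For miR-100a the abundant strand had 176520 reads and bma-mir-100a-p3 40, a ratio of 4413 in microfilariae. The ratio was 2485 for miR-71, 1460 for bantam, 372 for miR-50, 226 for miR-34, 61.1 for miR-87b, 3.64 for miR-9, 3 for miR-5843, 1.45 for miR-153 and 1.39 for miR-46. The arms were thus nearly level for miR-46 and miR-153 and far apart for the abundant miRNAs.

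Against females, the scarcer arm made up a smaller part of the reads of the pair in microfilariae for 5 miRNAs beyond counting error. The share of miR-34-3p was 0.440% (0.339 to 0.561) in microfilariae and 2.59% (0.955 to 5.54) in females. That of bma-bantam-p5_1ss12AG was 0.0684% (0.0354 to 0.120) in microfilariae and 0.303% (0.2 to 0.440) in females. The share of the 3p arm of miR-50 was 0.268% (0.164 to 0.414) in microfilariae and 1.37% (0.860 to 2.07) in females, and that of miR-9 was 21.5% (17.2 to 26.4) in microfilariae and 44.0% (37.6 to 50.6) in females. For miR-100a it was 0.0227% (0.0162 to 0.0308) in microfilariae and 0.0449% (0.0316 to 0.0619) in females. The opposite order held for bma-miR-153, at 40.7% (29.9 to 52.2) in microfilariae and 10.7% (2.27 to 28.2) in females, and all 8 reads of that pair in L3 were of this strand. For miR-71, miR-87b, miR-46 and miR-5843 the intervals of microfilariae and females overlapped. Strands of miR-9 and miR-153 are shown here for the shift between their arms:

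bma-miR-9-3p: aTAAAGCTaggttaccaaagct

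bma-mir-153-p5: aTCATTTTtgtggattagcaatt

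bma-miR-153: tTGCATAGtcacaaaagtgatg

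**Figure D5:**
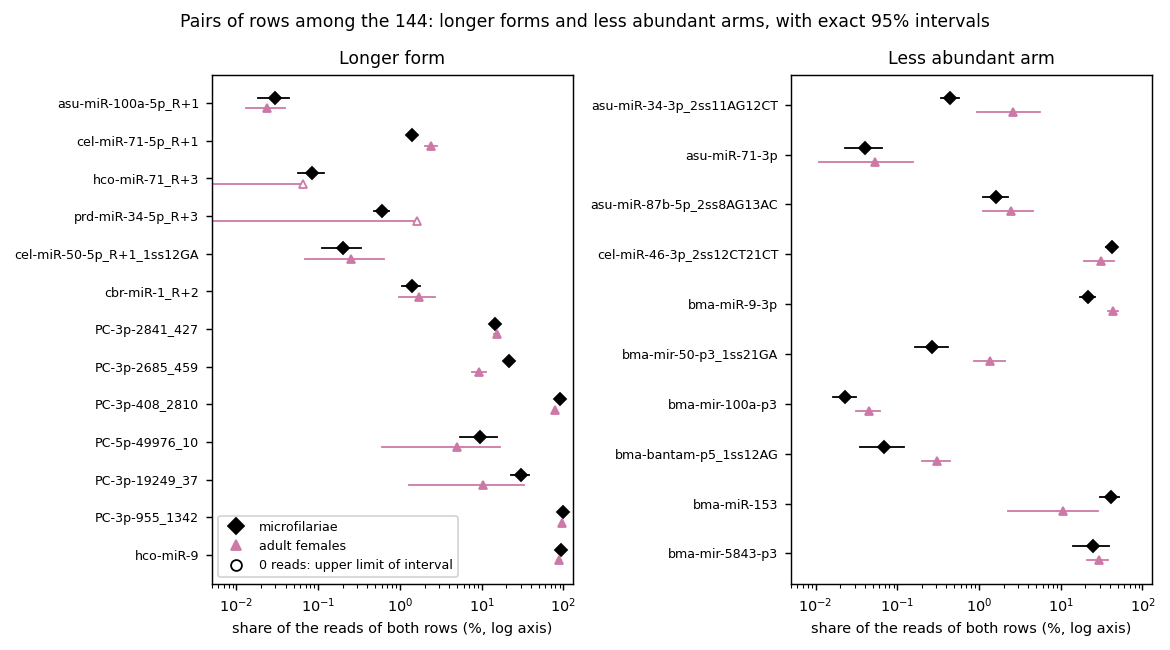
Percentage of the reads of each pair of rows (log axis) that belonged to the longer form (left) or to the less abundant arm (right), in microfilariae (black diamonds) and females (pink triangles), with exact 95% intervals; open triangles stand at the upper limit where females had 0 reads. In the right panel the diamonds of miR-34-3p, the 3p arm of miR-50, bantam-p5 and miR-9-3p lie left of their triangles, and that of miR-153 lies right.

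The plot of longer forms and scarcer arms gives these shares for all pairs. Shares within a pair of rows do not depend on how the libraries are scaled.

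Rows found in microfilariae with no read in any other library were 4. prd-miR-34-5p_R+3 had 88 reads, bma-miR-5365b_1ss13CT had 20, and the candidates PC-3p-64847_7 and PC-5p-86149_5 had 11 each. Of these only the miR-34 form would have been due 3 or more reads in every other library at an equal share, 4.17 in L3 and 3.99 in males, so for the other 3 rows the smaller libraries could not show an absence. At the threshold, PC-3p-156997_3, PC-3p-205708_2, PC-5p-156219_3 and bma-miR-72_R-2 had 10 reads and were kept, while PC-3p-89466_5 and prd-let-7-5p_1ss12GA had 9 and were not.

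Rows left out by the threshold include some that were abundant elsewhere. Of the 1084, 562 had 0 reads in microfilariae, 46 had 10 or more reads in at least 1 other library and 12 had 100 or more. bma-miR-36a_R+1_1ss19GA had 1 read in microfilariae and 19034 in females, and bma-miR-45_R-1 had 8 in microfilariae and 2763 in females. The candidate PC-3p-389_2939 had 0 reads in microfilariae, 3219 in L3 and 2060 in L4. bma-miR-5364, with 4 reads in microfilariae, was the 1 row of the 1084 with 10 or more reads in all 4 others, at 171 in L3, 1083 in L4, 425 in females and 149 in males.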

How the data were processed

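Small RNA of concentrated culture medium was sequenced as 1 library per stage or sex, 5 in all. Per the submitters' processing notes, the tools were bcl2fastq 1.8.4 and Bowtie, with no version stated. Per the file headers, the adapter was removed and only reads of 18 to 25 nt were kept. For the genome build, the miRNA database release and the aligner settings, a value is not given in the sources used here. The raw columns deposited by the authors hold estimated counts per sequence, mostly whole, and were rounded to whole numbers, after the minimum of 10 was applied to the raw value. The normalized signal columns deposited by the authors are the raw count divided by a library size parameter, and show 0.001 in place of a raw 0. All values were checked against this relation, with 0 mismatches, and the parameter entered only as an alternative scaling. Of the table's lines, 1 is not analysed here.

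Shares are of each column's sum. Clopper-Pearson and conditional binomial 95% intervals were computed with Python 3.11.15, numpy 2.4.6 and scipy 1.17.1, TMM factors with R 4.3.3 and edgeR 4.0.16, and figures with matplotlib 3.10.9. A share of 0 was set against 3 counts for a fold, which is then a lower bound. The interval step was tested on simulated data. With 1 library per group no p-value was computed. The members and the 14 name lists (miR-34, miR-71, muscle, neuronal, intestinal or epidermal, miR-92/miR-25, miR-9/miR-79, miR-72/miR-31, miR-80/bantam, miR-2/miR-43, miR-35/miR-36, miR-100/miR-51, lin-4 and let-7) were chosen with earlier results of these data known. Rows named were the most abundant, those with 50 or more reads furthest above or below all 4 libraries, and rows with no read elsewhere. Also named were length forms, both arms of a miRNA by its name and the most abundant row of each list. Rows named for their ratio to 1 library, their seed, their strand pairing or their last bases were chosen after their values were seen. Length forms were rows contained in a longer row. Suffixes such as R+1 and the group codes are not explained in the file, and names were printed as they stand. No worm genome was used, so candidates were not checked as hairpin products or as fragments of other RNAs. Alternatives were 4 other scalings, other minimums, and shares without dog-matched rows, without the most abundant row of each library, or with length forms summed.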

Additional observations from a re-analysis of the deposited data

How the results depend on the processing

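No paired analysis was possible because each group had 1 library. The counts depended most on how the libraries were scaled, since each scaling moves all ratios to a library by 1 amount. In log2 the shift of microfilariae over L3, L4, females and males, relative to shares, was 4.54, 1.99, 0.73 and 4.34 when counted per mappable read, -2.61, -3.50, -0.24 and -0.25 for the library size parameter of the authors, -1.28, -1.68, 0.65 and 1.48 with TMM, and -1.93, -3.14, 0.13 and 0.09 with median of ratios. Which scaling is nearest to the amounts released was not tested.

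Per mappable read, 94 rows were above all 4 libraries (61 by share), 1 below (6), 74 at least 2-fold above (12) and 1 at least 2-fold below (4). Higher and lower rows were then 139 and 2 against L3, 139 and 3 against L4, 75 and 27 against females, and 134 and 2 against males. With the authors' parameter 39 rows were above, 15 below, 4 at least 2-fold above and 9 at least 2-fold below, with 16 higher and 31 lower against L3, and 22 and 34 against L4. With TMM there were 17 lower against L3, 61 higher against L4, 74 higher against females, and 64 higher and 16 lower against males. With median of ratios 12 rows were below, 7 at least 2-fold above and 8 at least 2-fold below, with 24 higher and 27 lower against L3, and 27 and 23 against L4.

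With no row minimum (650 rows), 312 rows were above, 11 below and 7 at least 2-fold below, and 29, 44, 141 and 71 were lower against L3, L4, females and males in turn. With a minimum equal to 10 reads in the smallest library (48 rows), 23 were above, 1 below and 0 at least 2-fold below. That minimum left 2 lower against L3, 44 higher and 0 lower against L4, 20 higher and 12 lower against females, and 11 lower against males. Without dog-matched rows (121 rows), 3 were below and 2 at least 2-fold below, 6 were lower against L3 and 2 against L4, the miR-100 share was 74.9%, that of named rows 93.8% and that of 3p rows 5.52%. With no row minimum the 3p share was 6.13%. Without the most abundant row of each library, 31 were higher and 16 lower against L3, and 31 higher and 18 lower against L4. With length forms summed, every count stayed within 1.5 times.

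Of the 15 rows named for standing above or below all 4, 7 changed side in some setting, by the lowest of the 4 log2 ratios for rows above and the highest of the 4 for rows below. bma-miR-57 came to -1.36 with the authors' parameter, -1.01 with median of ratios and -0.68 without the most abundant rows. PC-5p-8534_111 came to -0.99, -0.63 and -0.31 in the same settings, and with the authors' parameter cel-miR-46-3p_2ss12CT21CT came to -0.34 and bma-miR-50 to -0.17. Per mappable read PC-3p-4596_246 came to 0.67, asu-let-7-5p to 1.0 and bma-miR-92_R+2 to 4.25, which was 1.39 with TMM, 0.066 with median of ratios and 0.12 without the most abundant rows. miR-34 kept its side in each of these settings. Depth limits the comparison with L3 and males, where rows scarce in microfilariae had 0 reads. The intervals leave out the spread between cultures, which no replicate measured.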

Other observations

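A shared 3′ end ran through rows of several seeds. Of the 144 rows, 11 (7.64%) ended in GTCT, among them bma-miR-57, asu-miR-86-5p, asu-miR-5360-5p, PC-3p-521_2331 and PC-5p-717_1743, against 10 of the other 1084 rows (0.923%). These 11 were 5 named rows and 6 candidates, and 3 of the named rows were among the 21 most abundant. All rows with this ending held 6.92% of the reads in microfilariae, 0.572% in L3, 0.953% in L4, 7.30% in females and 4.01% in males. By reads the ending thus did not set microfilariae apart from females. The ending was noticed in the data, and its source was not tested.

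Some candidates paired with one another as the strands of a hairpin would. Of 10296 pairs of rows, 6 had at least 18 paired bases of which at least 16 were Watson-Crick pairs, and 3 of the 6 were pairs of candidates. PC-3p-183_5819, the twelfth row with 9192 reads in microfilariae, paired over 20 bases with PC-5p-8534_111, which had 355 and made up 3.72% (3.35 to 4.12) of the pair in microfilariae, 6.52% (1.37 to 17.9) in L3, 4.31% (2.88 to 6.17) in L4, 1.57% (1.26 to 1.94) in females and 0.669% (0.0811 to 2.40) in males. The scarcer strand thus made up more of the pair in microfilariae than in females or males beyond counting error. PC-3p-955_1342, with 1895 reads in microfilariae, paired over 18 bases with PC-5p-44085_12, with 23. PC-5p-48814_11 and PC-3p-118430_4, with 18 and 14 reads in microfilariae, paired over 20 bases without a mismatch. The strands, with the seed in capitals, were:

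PC-3p-183_5819: tCCCGGCTcgtggcaccaaataga

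PC-5p-8534_111: aTTTGGTGctacgaggtggga

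PC-3p-955_1342: gAACCTCAcctcgggcaccagaa

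PC-5p-44085_12: tGGTGCCCgaagtgaggtctga

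PC-5p-48814_11: gATATGGAttatgactcgtct

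PC-3p-118430_4: gACGAGTCataatccatatcta

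In 2 pairs of length forms the names carried opposed arms, 5p for the shorter and 3p for the longer row, although both rows start at the same base: PC-5p-799_1592 with PC-3p-2841_427, and PC-5p-4524_250 with PC-3p-408_2810.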
